A study of Homo sapiens with 6 samples.

Results

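The small nuclear RNA (snRNA) genes were taken from the ChIP-seq of RPB1 and phospho-Ser2 RPB1 in HepG2 cells with SHP-1 (SHP-1 WT) or without it (SHP-1 KO), as the regions that the authors assigned to a gene symbol starting with RNU and a digit, RNVU or RN7SK. HepG2 is a human hepatoma line, and SHP-1 is a tyrosine phosphatase encoded by PTPN6. All cells were untreated. The SHP-1 WT cells were the CRISPR control, a line grown out after transfection of a nontargeting guide, and the SHP-1 KO cells were a CRISPR knockout line made with guides against exons of the phosphatase domain. Both are clonal lines, so a difference between the clones and the loss of SHP-1 cannot be told apart. There was 1 library per antibody and cell line and no replicate, so every value below describes single libraries and no test was possible. Read depth is unknown, as the files hold no read counts. The cell lines are called WT and KO below.

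Of the 46045 regions in the WT RPB1 list, 64 were assigned to these genes, and 28 of them lay within 1000 bp of the annotated start. The KO RPB1 list held 52 of 41605 regions, 31 of them within 1000 bp. In the phospho-Ser2 RPB1 lists there were 60 of 102674 regions in WT cells, 24 of them within 1000 bp, and 51 of 81012 in KO cells, 23 of them within 1000 bp. The share within 1000 bp was 43.8% in the WT and 59.6% in the KO RPB1 list, against 44.6% and 47.4% of all regions. In the phospho-Ser2 lists it was 40.0% in WT and 45.1% in KO cells, against 23.9% and 25.1% of all regions. The regions within 1000 bp belonged to 29 annotated gene copies under 24 symbols. The authors' symbols merged some copies, so each copy was named here by its position in RefSeq or, for RNVU1-29, in GENCODE, and 6 copies carry another name than the authors' symbol. A U1 copy on an unplaced sequence of chromosome 1 and a U2 copy on chromosome 17 had no name by position. As a check of the cell line, ALB, which encodes albumin, had a region within 1000 bp of its start in all 4 lists with a fold enrichment of 24.4 in the WT RPB1 list, and SERPINA1, which encodes alpha-1-antitrypsin, had one of 67.2. APOA1, another liver gene, had no such region in either RPB1 list. ChIP-seq of RPB1 does not measure the SHP-1 protein and gives no check of the knockout.

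The snRNAs are short nuclear RNAs without a poly(A) tail that form the core of the spliceosome or, for U7, of the particle that processes the ends of histone mRNAs. Most of their genes are transcribed by RNA pol II from a promoter with a distal element, often an octamer bound by OCT1, and a proximal element bound by the SNAPc complex, and their transcripts are cut by the Integrator complex at a 3′ box just behind the gene. U6, U6atac and 7SK use a similar promoter with an added TATA-like element and are transcribed by RNA polymerase III. The 29 copies were 24 of the RNA pol II class, which are 12 U1, 1 U2, 2 U4, 5 U5, 1 U11, 1 U12, 1 U4atac and 1 U7 copy, and 5 of the RNA polymerase III class, which are 4 U6 copies and RNU6ATAC. RN7SK, the gene for the 7SK RNA that holds the kinase P-TEFb inactive, had no region assigned to it within 1000 bp.

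The promoter windows below, from 75 to 15 bases before the start on hg38, are shown because the promoter sorts these genes between the 2 polymerases. Each is written 5′ to 3′ in the direction of the gene, and capitals mark the letters TTANA, searched on the gene's strand from 36 to 20 bases before the start.
RNU1-1, chr1:16514300-16514360, reverse strand: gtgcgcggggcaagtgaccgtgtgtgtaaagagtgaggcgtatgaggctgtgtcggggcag
RNVU1-29, chr1:146376732-146376792, forward strand: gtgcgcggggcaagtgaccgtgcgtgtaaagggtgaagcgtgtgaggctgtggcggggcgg
RNU4-2, chr12:120291918-120291978, reverse strand: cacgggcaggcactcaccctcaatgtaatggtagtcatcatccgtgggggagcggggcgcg
RNU5E-1, chr1:11908077-11908137, forward strand: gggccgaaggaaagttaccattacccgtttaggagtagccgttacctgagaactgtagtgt
RNU11, chr1:28648525-28648585, forward strand: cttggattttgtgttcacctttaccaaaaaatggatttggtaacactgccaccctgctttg
RNU12, chr22:42615169-42615229, forward strand: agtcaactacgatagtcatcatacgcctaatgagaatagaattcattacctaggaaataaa
RNU4ATAC, chr2:121530806-121530866, forward strand: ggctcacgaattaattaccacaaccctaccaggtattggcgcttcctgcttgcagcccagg
RNU7-1, chr12:6943741-6943801, forward strand: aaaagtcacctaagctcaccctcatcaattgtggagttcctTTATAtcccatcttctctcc
RNU6-1, chr15:67840060-67840120, reverse strand: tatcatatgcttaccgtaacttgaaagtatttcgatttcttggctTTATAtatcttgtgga
RNU6-2, chr19:1021447-1021507, forward strand: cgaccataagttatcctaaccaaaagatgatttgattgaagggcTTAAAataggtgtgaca
RNU6-7, chr14:32201970-32202030, forward strand: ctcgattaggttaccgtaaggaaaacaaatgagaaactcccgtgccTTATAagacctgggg
RNU6-8, chr14:32203284-32203344, reverse strand: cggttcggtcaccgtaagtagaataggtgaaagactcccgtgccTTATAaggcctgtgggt
RNU6ATAC, chr9:134164579-134164639, reverse strand: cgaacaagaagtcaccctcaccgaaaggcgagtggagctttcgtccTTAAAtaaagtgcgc
RN7SK, chr6:52995546-52995606, forward strand: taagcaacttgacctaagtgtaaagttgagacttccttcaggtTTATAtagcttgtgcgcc
TTANA was in this stretch in 5 of 5 RNA polymerase III copies and in 1 of 24 RNA pol II copies, RNU7-1, whose match begins 34 bases before the start. RN7SK also held it. In the 35116 RefSeq promoter windows of the reference table, which cover the same stretch of other genes, 5.35% held it. The octamer, ATTTGCAT or ATGCAAAT for the other strand, was within 250 bases before the start of 9 of 24 RNA pol II copies and 3 of 5 RNA polymerase III copies, against 1.63% of all promoter windows. Among the RNA pol II copies it began 203 bases before the start at RNU5A-1, the nearest, and 229 bases before it at RNU4-2 and RNU4ATAC, the farthest. None of the 12 U1 copies held these letters in this window. Many of these copies share sequence, so they are not independent examples.

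Both antibodies gave regions of high fold enrichment at the RNA pol II copies. Fold enrichment is the authors' ratio of the ChIP signal to input at the summit of a region, and the strongest region within 1000 bp stands for each gene copy. The RPB1 fold enrichment of the 22 RNA pol II copies with a region in WT cells had a median of 48.5 with a range from 5.01 to 70.6, and that of 23 copies in KO cells had a median of 52.0 with a range from 8.45 to 76.6. All regions within 1000 bp of any start had a median of 11.9 in WT and 9.89 in KO cells. For phospho-Ser2 RPB1, the median was 14.2 over 21 copies in WT cells and 18.0 over 22 copies in KO cells, against 3.87 and 4.02 over all regions near a start. The medians over all regions count every region near a start, weaker second regions of a gene too. They are therefore not a like measure to the strongest region of each copy, and the gap is partly one of measure.

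**Figure D1:**
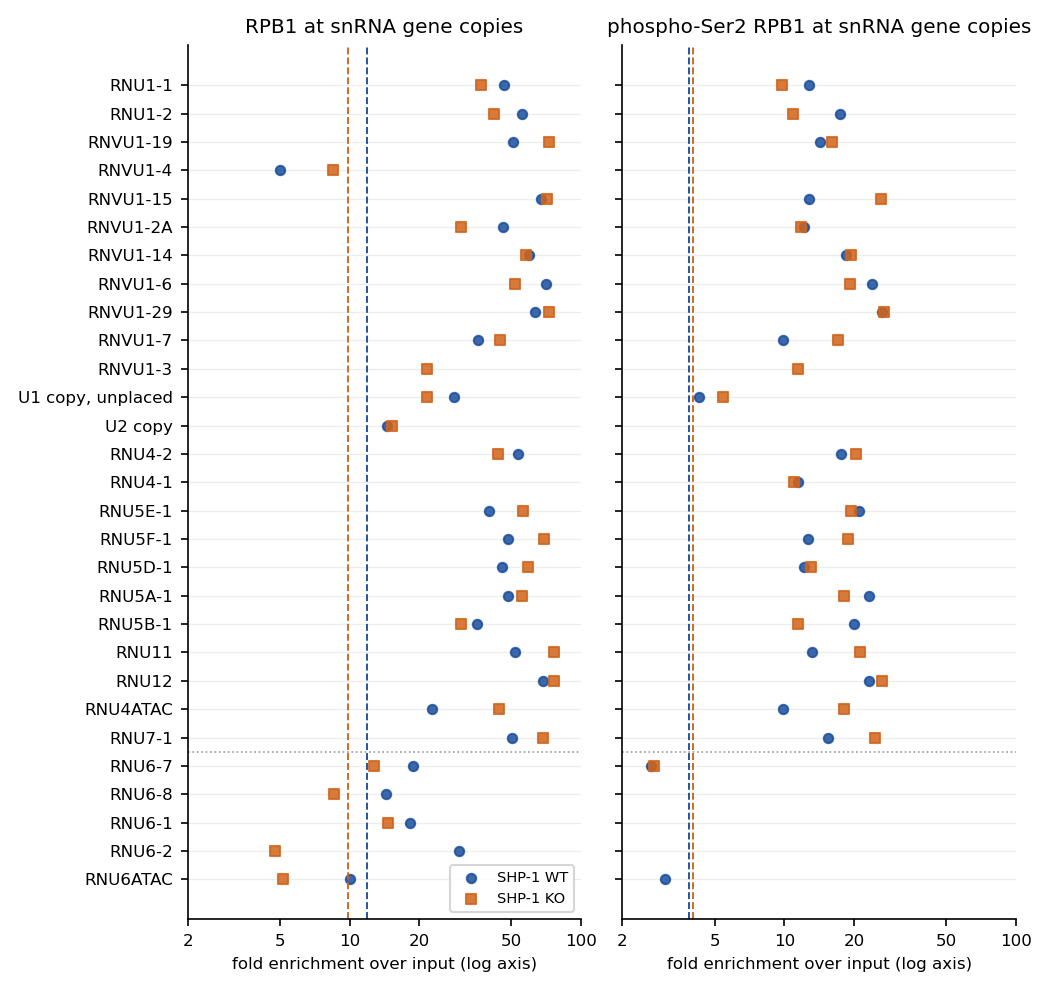
Fold enrichment over input (log axis) of RPB1 and phospho-Ser2 RPB1 at each of the 29 snRNA gene copies, with circles for WT and squares for KO, dashed lines for the median of all regions within 1000 bp of a start in each library and a dotted line between the RNA pol II copies above and the RNA polymerase III copies below. Most RNA pol II copies sit well to the right of the dashed lines with both antibodies, and the 2 RNA polymerase III copies with a phospho-Ser2 region lie to the left of them. The points are the strongest region of each copy, while the dashed lines count every region near a start.

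The U1 snRNA pairs with the 5′ splice site, and its genes are spread over many near-identical copies on chromosome 1. The canonical RNU1-1, from 16514122 to 16514285 on the reverse strand of hg38, had an RPB1 fold enrichment of 46.6 in WT and 36.9 in KO cells, and a phospho-Ser2 fold enrichment of 12.8 and 9.73. At RNU1-2, from 16895980 to 16896143, the RPB1 values were 55.5 and 42.1 and the phospho-Ser2 values 17.3 and 10.9. Both canonical copies were lower in KO cells with both antibodies. The variant copies (RNVU1) lie near the centromere of the same chromosome and did not move together. RNVU1-19 had RPB1 values of 50.9 in WT and 72.8 in KO cells and phospho-Ser2 values of 14.2 and 16.0. RNVU1-15 had RPB1 values of 67.1 and 71.3, and its phospho-Ser2 value went from 12.8 to 26.2. RNVU1-7 was higher in KO cells with both antibodies, from 35.7 to 44.4 for RPB1 and from 9.88 to 17.0 for phospho-Ser2. RNVU1-6 and RNVU1-2A were lower in KO cells for RPB1. RNVU1-6 had the highest RPB1 value of the WT list among the copies, 70.6, with 52.0 in KO cells, and phospho-Ser2 values of 23.8 and 19.2. RNVU1-2A went from 46.1 to 30.4 for RPB1 and from 12.2 to 11.8 for phospho-Ser2. RNVU1-14 and RNVU1-29 differed by at most 1.15-fold between the cell lines, at 59.6 and 58.0 and at 63.1 and 72.3 for RPB1, and at 18.5 and 19.3 and at 26.4 and 27.0 for phospho-Ser2. RNVU1-4 was the weakest, with RPB1 values of 5.01 and 8.45 and no phospho-Ser2 region. The unplaced U1 copy had RPB1 values of 28.2 and 21.7 and phospho-Ser2 values of 4.29 and 5.43.

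How the reads of near-identical U1 copies were shared was not given in the sources used here. Of the 21 U1 genes in the RefSeq table, 16 had an RPB1 region within 250 bp of the gene in WT cells, whatever gene it was assigned to. RNU1-3 and RNU1-4 had none with either antibody, and each 100-base stretch of either gene with 250 bases on each side also occurs in another U1 copy. At RNU1-1 and RNU1-2 that share was 20.7% and 36.5%. RNVU1-18, with 57.2%, had no region either, and RNVU1-17 and RNVU1-1, with 0.0%, had none. Only RefSeq U1 genes were compared, and the 100-base stretches are longer than the sequenced reads. A share of 0.0% therefore does not show that the reads there were unique. The part of shared sequence in these missing regions was not tested.

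The U2 and U4 snRNAs pair with U6 in the spliceosome, U2 also with the branch point. The U2 copy on chromosome 17, from 43251829 to 43252019, had RPB1 values of 14.5 in WT and 15.3 in KO cells and no phospho-Ser2 region. RNU4-2 had RPB1 values of 53.3 and 43.6 and phospho-Ser2 values of 17.6 and 20.4. RNU4-1, from 120293097 to 120293237, lies upstream of RNU4-2, from 120291763 to 120291903, on the same reverse strand. It lay inside the same WT RPB1 region of 2856 bp, which was assigned to RNU4-2, so RNU4-1 has no RPB1 value of its own. The phospho-Ser2 lists held a separate region at RNU4-1, with 11.53 in WT and 10.99 in KO cells.

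The U5 snRNA holds both exons during splicing and comes from 5 genes here. RNU5F-1, RNU5D-1 and RNU5E-1 on chromosome 1 were higher for RPB1 in KO cells, at 48.4 and 68.9, at 45.7 and 59.0 and at 39.9 and 56.2. Their phospho-Ser2 values were 12.7 and 18.9, 12.1 and 13.0, and 20.9 and 19.3, so RNU5F-1 and RNU5D-1 were higher with both antibodies. RNU5A-1 and RNU5B-1, next to each other on chromosome 15, were lower for phospho-Ser2 in KO cells, from 23.1 to 18.0 and from 19.9 to 11.5. Their RPB1 values were 48.5 and 55.5 for RNU5A-1 and 35.5 and 30.3 for RNU5B-1.

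The RNA pol II genes of the minor spliceosome and the U7 gene had higher values in KO cells with both antibodies, while RNU6ATAC, described with the RNA polymerase III copies, had a lower RPB1 value. RNU4ATAC, whose RNA takes the place of U4 in the minor spliceosome, went from 22.8 to 44.1 for RPB1 and from 9.85 to 18.0 for phospho-Ser2. RNU11, whose RNA pairs with the 5′ splice site of minor introns, went from 51.6 to 76.1 and from 13.1 to 21.2. RNU12, whose RNA pairs with their branch point, went from 68.3 to 76.6 and from 23.1 to 26.4. RNU7-1 went from 50.4 to 68.2 and from 15.5 to 24.5, and it lies on chromosome 12 with its start 2652 bp from that of PTPN6, the gene targeted in the KO cells. The WT RPB1 region at RNU11 also held the start of TAF12, that at RNU12 the start of POLDIP3, that at RNU4ATAC the start of CLASP1-AS1 and that at RNU7-1 the start of C12orf57, and what these neighbours add to the values was not tested.

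Set against all genes with a value in both lists, the KO to WT ratio of RPB1 fold enrichment was high at most RNA pol II snRNA copies. Over the 11255 features with a region within 1000 bp in both RPB1 lists, where a feature is a gene or an snRNA gene copy, the median ratio of KO to WT fold enrichment was 0.727, a shift of -0.46 on the log2 scale. The 22 RNA pol II copies with both values had a median ratio of 1.13 with a range from 0.661 to 1.94. Of them 14 were above 1, a share that was 15.2% over all features. By a fold of 1.5 as deposited, RNU4ATAC and RNVU1-4 were higher in KO cells, at 1.94 and 1.69, where 2.12% of all features were, and RNVU1-2A was lower, at 0.661, where 38.2% were. Divided by the median of all features, 21 of the 22 copies lay above 1, all but RNVU1-2A, at 0.909, and 12 lay at least 1.5 times higher, where 10.3% of all features did. No RNA pol II copy lay 1.5 times lower on that scale, where 9.29% of all features did. The relative ratio was 2.67 at RNU4ATAC, 2.32 at RNVU1-4, 2.03 at RNU11, 1.97 at RNVU1-19 and 1.96 at RNU5F-1, and it was 1.09 at RNU1-1 and 1.04 at RNU1-2. The canonical U1 copies, lower in KO cells as deposited, were close to the median of all features.

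**Figure D2:**
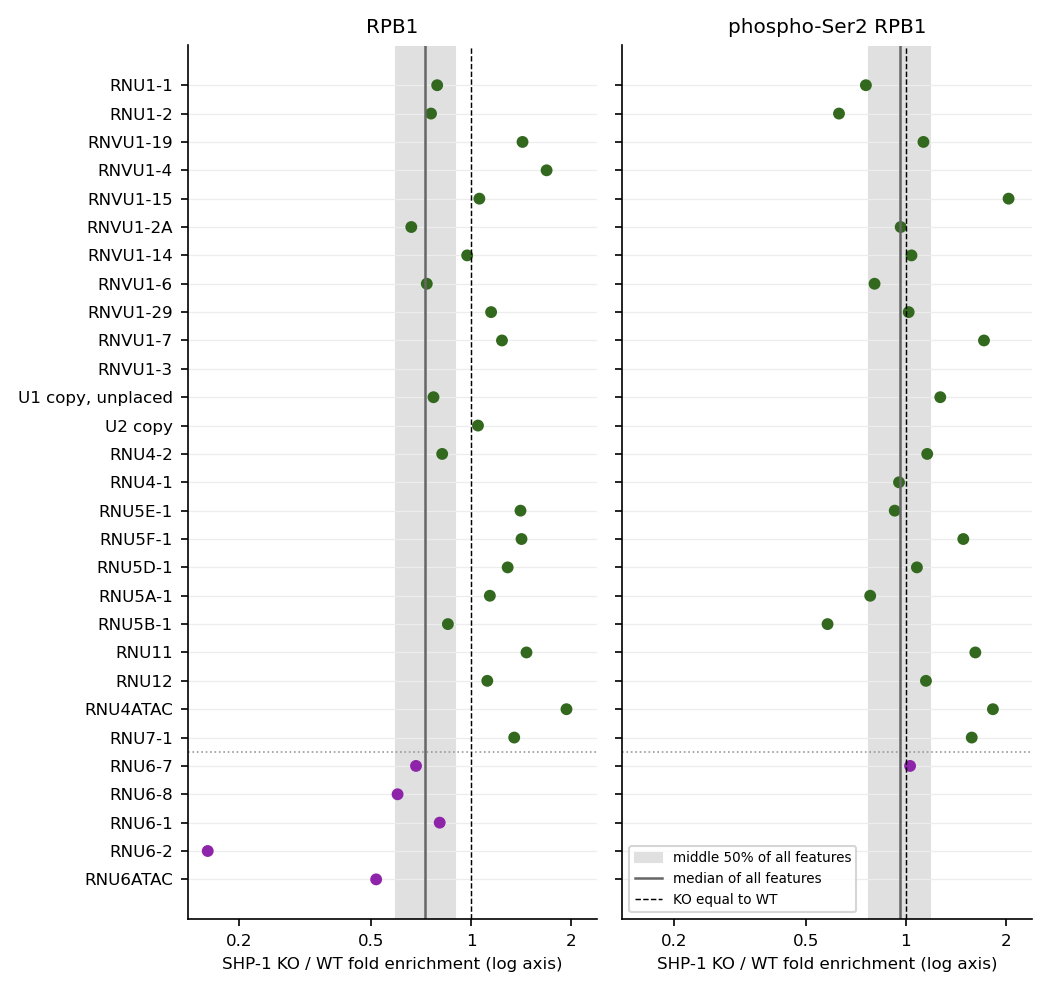
Ratio of KO to WT fold enrichment (log axis) at each snRNA gene copy for RPB1 and phospho-Ser2 RPB1, with the middle 50% of all features in grey, their median as a solid line and a ratio of 1 as a dashed line; RNA polymerase III copies are below the dotted line. For RPB1, 14 of 22 RNA pol II copies lie above 1 while the median of all features is 0.727; for phospho-Ser2, 13 of 21 lie above 1 and the median is 0.958.

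The comparison was repeated among features of like strength. The range, set after the values were seen, ran from the lower quartile to the highest WT value of the RNA pol II copies, 36.7 to 70.6 for RPB1. Among the 3306 features in it the median ratio was 0.690, and 6.72% of features were above 1. The 16 copies in it had a median of 1.13, 10 of them were above 1 and 12 were above the upper quartile of these features, 0.809. For phospho-Ser2, the median over 7194 features was 0.958 and the 21 RNA pol II copies had a median of 1.08 with a range from 0.581 to 2.04. Here 13 copies were above 1, against 44.4% of all features. The copies 1.5 times higher were RNVU1-15, RNU4ATAC, RNVU1-7, RNU11 and RNU7-1, at ratios of 2.04, 1.83, 1.72, 1.62 and 1.58, where 8.38% of all features were, and those 1.5 times lower were RNU5B-1 and RNU1-2, at 0.581 and 0.629, where 13.5% were. Divided by the median of all features, 14 of the 21 copies lay above 1, and 6 were at least 1.5 times higher, against 10.4% of features. RNU5B-1 and RNU1-2 were at least 1.5 times lower on that scale too, at 0.606 and 0.656. Among the 548 features with a WT phospho-Ser2 fold enrichment from 12.2 to 26.4, the range set in the same way, the median was 0.793, and 12 of the 16 copies in that range were above it.

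Most copies had a region in both cell lines. Each of the 27 copies with a near RPB1 region in WT cells had one in KO cells, where 92.0% of all features with a WT region did. Of the 28 copies with one in KO cells, 27 had one in WT cells, where 95.1% of features did. With phospho-Ser2, 22 of 23 WT copies had a region in KO cells, against 79.4% of features, and 22 of 23 KO copies had one in WT cells, against 89.8%. The copy in the KO lists alone was RNVU1-3, with 21.6 for RPB1 and 11.5 for phospho-Ser2. By position, however, the WT lists also held regions over this gene, of 9.51 and 7.62, which the authors assigned to LOC100132057, so its absence in WT cells came from the assignment. The copy in the WT phospho-Ser2 list alone was RNU6ATAC, at 3.05.

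The RNA pol II copies ranked higher in the phospho-Ser2 lists than in the RPB1 lists. These lists differ in make-up, as 23.9% of WT phospho-Ser2 regions lay within 1000 bp of a start, against 44.6% of WT RPB1 regions. Ranks in them are therefore not a like measure. In WT cells, 15 of 21 copies with a phospho-Ser2 region had a fold enrichment at or above the percentile 99 of that list, where 5.95% of all features near a start did. In the WT RPB1 list 2 of 22 copies did, RNVU1-6 and RNU12, where 3.69% of features did, and the median copy stood at percentile 95.8. In KO cells, 15 of 22 copies were there for phospho-Ser2, where 5.69% of features were, and 11 of 23 for RPB1, where 3.42% were. Among the copies without such a rank in either phospho-Ser2 list was the unplaced U1 copy, at percentile 69.0 in WT cells.

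The ratio of phospho-Ser2 to RPB1 fold enrichment sets the strongest phospho-Ser2 region within 1000 bp of a start against the strongest RPB1 region there. Their summits can lie at different places, so the ratio does not measure the share of polymerase that carried the mark. Its scale is set by both antibodies and can only be compared between genes. The distance of 1000 bp covers the whole of each snRNA gene but only the first part of a longer gene. The ratios below thus set whole genes against parts of longer genes, and what this adds was not tested. In WT cells, 22 of the 27 copies with an RPB1 region also had a phospho-Ser2 region, against 63.1% of features, and in KO cells 22 of 28, against 58.6%. The median ratio of 20 RNA pol II copies in WT cells was 0.309 with a range from 0.152 to 0.559, and that of 7724 features was 0.171. Of these copies 17 lay at least 1.5 times above the median of all features, where 31.2% of features did. In KO cells the 21 copies had a median of 0.345 and 6932 features a median of 0.227, and 12 copies lay at least 1.5 times above it, where 29.2% of features did. The U5 genes RNU5B-1, RNU5E-1 and RNU5A-1 had the highest ratios in WT cells, 0.559, 0.523 and 0.476, and in KO cells they had 0.381, 0.344 and 0.325. RNU4-2 went the other way, from 0.331 to 0.467. Among the features between the lower quartile and the highest RPB1 value of these copies, from 44.2 to 70.6 in WT and from 42.1 to 76.6 in KO cells, the median ratio was 0.103 and 0.124. All 15 RNA pol II copies in this range in WT cells and all 16 in KO cells were above the upper quartile of those features, which was 0.142 and 0.182.

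**Figure D3:**
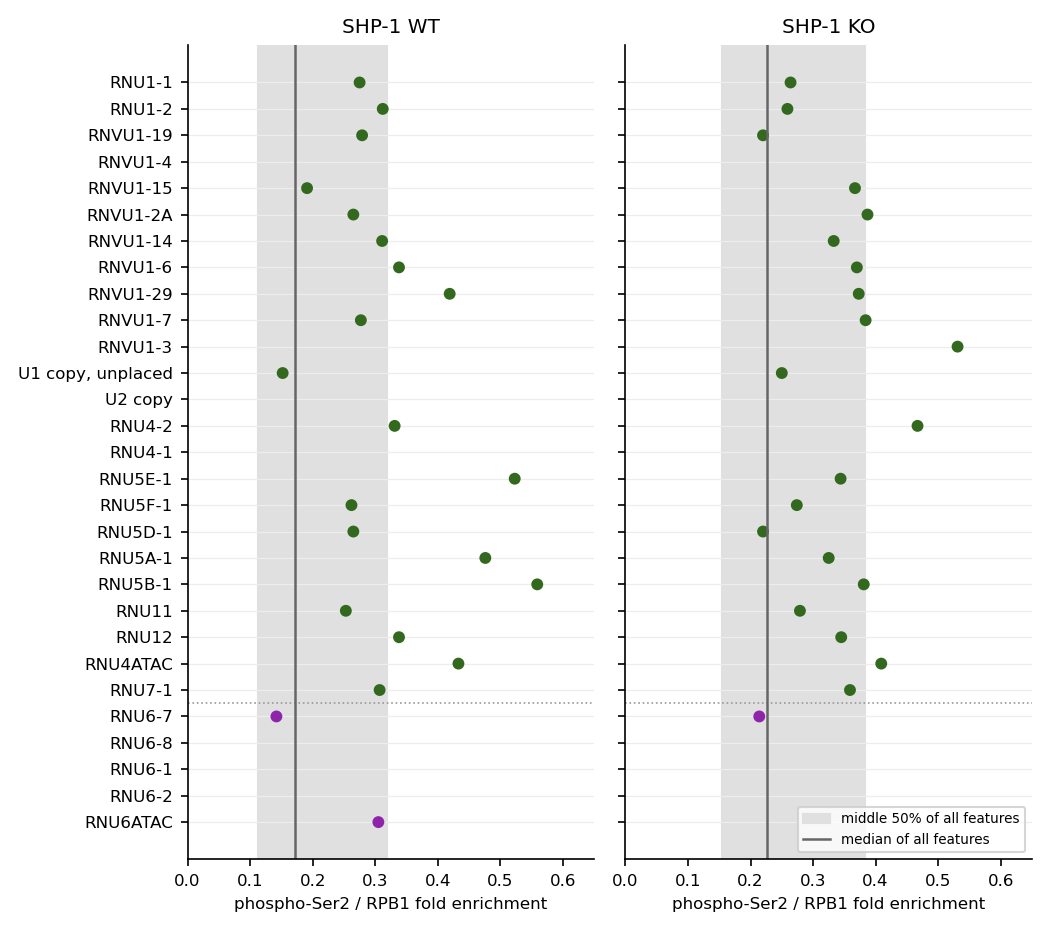
Ratio of phospho-Ser2 to RPB1 fold enrichment in WT and KO cells at each snRNA gene copy with both regions, with the middle 50% of all features in grey and their median as a solid line. In WT cells 19 of 20 RNA pol II copies lie to the right of the median of 0.171, and in KO cells 19 of 21 lie to the right of 0.227. Only regions within 1000 bp of a start count, which cover a whole snRNA gene but a part of a longer gene.

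The summit of the region, its point of highest signal, lay behind the start at each RNA pol II copy. For RPB1 it was 61 to 313 bp behind the start in WT cells, with a median of 187 bp, and 2 to 312 bp in KO cells. All 22 copies in WT and all 23 in KO cells had it at or behind the start, where 67.1% and 66.9% of features did. For phospho-Ser2, all 21 and all 22 copies did, where 57.8% and 58.7% of features did, and the WT summits lay 61 to 242 bp behind the start. The genes are short, from 63 bp for RNU7-1 to 191 bp for the U2 copy, so many summits lay near or behind the 3′ end. RPB1 regions ended a median of 636 bp past the gene in WT and 554 bp in KO cells, and phospho-Ser2 regions 375 and 339.5 bp. The phospho-Ser2 region was shorter than the RPB1 region at all 20 copies with both in WT cells and at all 21 in KO cells, with a median length ratio of 0.516 and 0.597. Over all features it was shorter in 77.7% and 77.6%, with a median ratio of 0.368 and 0.385.

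**Figure D4:**
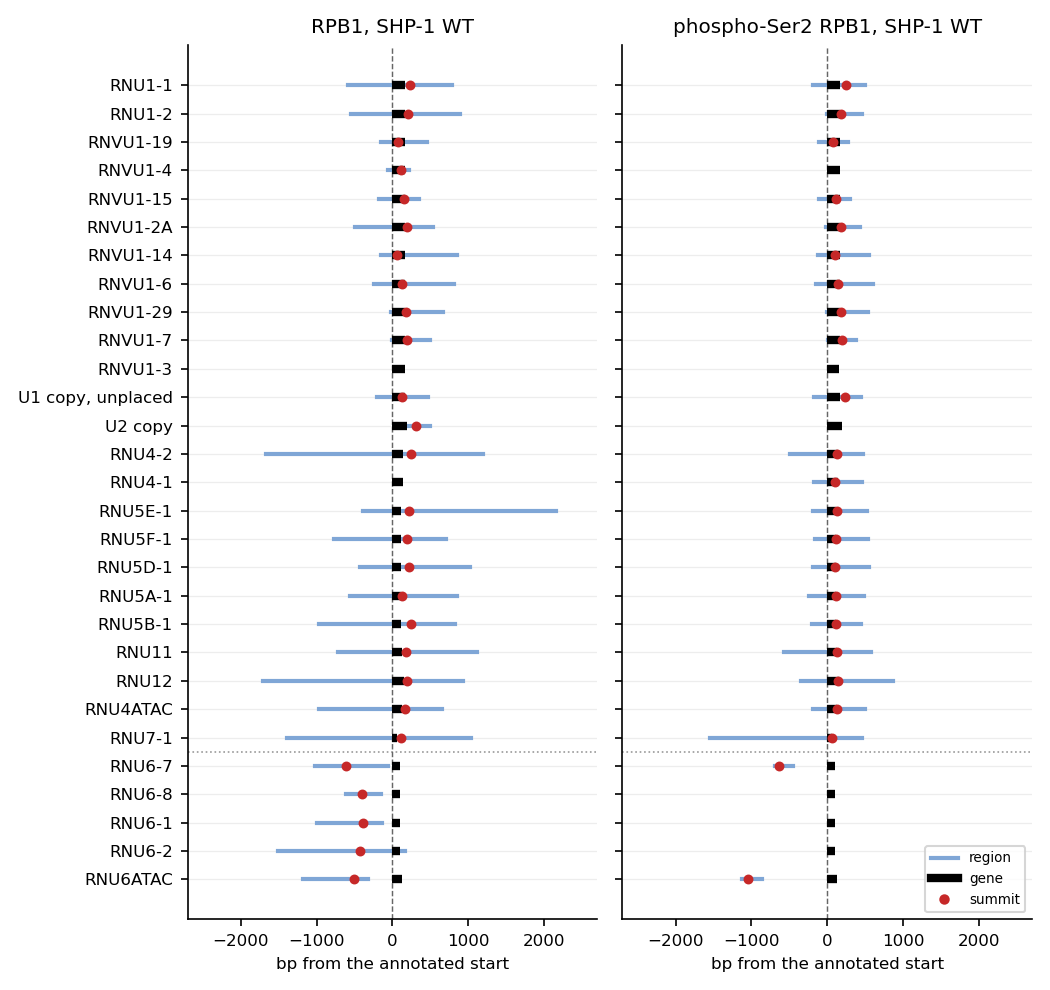
Extent of the strongest near region (blue line), its summit (red point) and the gene (black bar) in bp from the annotated start at each snRNA gene copy, for RPB1 and phospho-Ser2 RPB1 in WT cells, with rows left without a line where no near region was assigned. Summits lie behind the start at the RNA pol II copies and 391 to 607 bp before it for RPB1 at the RNA polymerase III copies below the dotted line.

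In WT cells, the RNA polymerase III copies differed from the rest in level, position and mark. RNU6-7 had an RPB1 fold enrichment of 18.7 in WT and 12.8 in KO cells, RNU6-8 of 14.3 and 8.60, and RNU6-1 of 18.2 and 14.6. RNU6ATAC, the U6 counterpart of the minor spliceosome, had 10.0 and 5.18. All 5 WT values lay between 10.0 and 29.7, and 18 of the 22 RNA pol II copies lay above all of them. The WT RPB1 summits of all 5 lay 391 to 607 bp before the start, on the promoter side, and at 4 of them the region ended before the gene began. In KO cells 4 of the 5 summits lay before the start, and that of RNU6-2 lay 192 bp behind it. The WT region at RNU6-7 also held the start of another annotated gene, 298 bp from the summit, and what that gene adds was not tested. Phospho-Ser2 regions were listed for RNU6-7 alone in both cell lines, with 2.65 and 2.73, and for RNU6ATAC in WT cells, with 3.05. They ended 457 and 288 bp before the start of RNU6-7 and 858 bp before that of RNU6ATAC. The ratio of KO to WT RPB1 had a median of 0.601 over the 5 copies, and none was above 1, where 15.2% of all features were. As deposited, 3 of them were lower by at least 1.5-fold, RNU6-8, RNU6ATAC and RNU6-2, at 0.601, 0.518 and 0.161, where 38.2% of all features were. Relative to the median of all features RNU6-7 was at 0.941, RNU6-8 at 0.827, RNU6ATAC at 0.712 and RNU6-1 at 1.11, none of them past 1.5-fold.

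RNU6-2 had the lowest ratio, from 29.7 to 4.77 for RPB1, but this rests on how the region was split. In WT cells a region from 1020009 to 1021689 on chromosome 19 covered the gene together with the start of TMEM259, which lies 78 bp from the summit. In KO cells the list held a strong region starting at 1019969 with a fold enrichment of 21.7, assigned to TMEM259, and a separate weak one at RNU6-2. By position the ratio was 0.730, close to the median of all features.

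By position, 35 of 42 snRNA genes in the RefSeq table had a region within 250 bp in at least 1 list, and 10 of them were not among the 29 copies. The regions at RNVU1-26 and RNVU1-28 were assigned to RNVU1-11 at more than 1000 bp from its start, and those at the other genes were assigned to a neighbour outside the chosen symbols. RNU2-2, a U2 gene, had RPB1 values of 51.5 in WT and 39.7 in KO cells and phospho-Ser2 values of 14.4 and 11.4, in regions assigned to WDR74. RNU6-9 had 32.1 and 22.9 for RPB1, assigned to MED16, and a phospho-Ser2 region of 3.52 in KO cells. RN7SK had 23.4 and 12.8 for RPB1, assigned to GSTA4, in regions that ended before the start of the gene, and no phospho-Ser2 region within 250 bp. The KO to WT ratios of RNU6-9 and RN7SK, both transcribed by RNA polymerase III, were 0.714 and 0.548, next to a median of 0.727 over all features. Of the U1 variants, RNVU1-30 went from 31.0 to 46.0 for RPB1 and from 7.11 to 19.6 for phospho-Ser2, RNVU1-31 from 32.9 to 36.5 and from 8.80 to 13.6. RNVU1-27 was lower with both, with KO values of 15.3 and 4.07 and ratios of 0.437 and 0.401. The U1 variants thus differed from each other in direction. Over the RefSeq genes with both RPB1 values by position the median ratio was 1.12 for the RNA pol II class and 0.699 for the RNA polymerase III class, against 1.13 and 0.601 by the authors' symbols.

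The regions farther than 1000 bp from the start of their assigned gene were weaker by the median. Their median fold enrichment was 5.13 and 5.94 in the WT and KO RPB1 lists and 4.02 and 3.76 in the phospho-Ser2 lists, against 45.9, 42.1, 13.0 and 18.0 for the regions within 1000 bp. The strongest was on chromosome 1 from 16903933 to 16905900, 7953 bp from RNU1-2 and inside CROCC, with an RPB1 fold enrichment of 54.6 in WT cells and 57.6 for its counterpart in KO cells. The strongest for phospho-Ser2 lay 1004 bp behind the start of RNU12 in the 3′ UTR of CYB5R3, with 25.6 in WT and 20.2 for the region there in KO cells. For RN7SK the lists held phospho-Ser2 regions 4551 bp away in WT and 4920 bp in KO cells, of 3.61 and 3.05. At the limit of 1000 bp in the WT phospho-Ser2 list, the region at RNU6ATAC, 858 bp away with 3.05, was just inside and that at RNU12, 1004 bp away with 25.6, just outside.

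The genes of the factors that make snRNAs were taken from lists of the Integrator complex, the snRNA promoter factors, the little elongation complex that works with RNA pol II at snRNA genes, the 7SK particle with P-TEFb, and snRNA export and capping. Of these 45 genes, 31 had a region within 1000 bp in both RPB1 lists, with a median KO to WT ratio of 0.726, next to 0.727 for all features. By a fold of 1.5, 1 was higher and 11 were lower in KO cells, where 2.12% and 38.2% of all features were. For phospho-Ser2, 25 had a region in both lists with a median of 1.04, and 3 were higher and 5 lower, where 8.38% and 13.5% of all features were. The RPB1 medians were 0.922 for 13 Integrator genes, 0.673 for 10 promoter factor genes, 0.543 for 3 genes of the little elongation complex and 0.685 for 4 genes of the 7SK particle and P-TEFb. The phospho-Ser2 medians were 1.23 for 11 Integrator genes, 1.27 for 7 promoter factor genes and 0.841 for 4 genes of the 7SK particle and P-TEFb, next to 0.958 for all features, and the 1 gene of the little elongation complex with both values was at 1.14. PHAX, the export adaptor of snRNAs, was the only gene of its list with both RPB1 values, at 0.726. The highest ratio was at INTS6, an Integrator subunit, from 6.62 to 11.2, while its phospho-Ser2 value went from 8.99 to 6.24. The lowest was at SNAPC5, a small subunit of SNAPc, from 26.9 to 4.22 for RPB1 and from 26.7 to 5.54 for phospho-Ser2, lower with both antibodies. RPB1 regions in 1 list alone were at GTF2F1 and NCBP2 in WT cells, of 4.01 and 2.95, and at ICE2 in KO cells, of 4.04. For phospho-Ser2, POU2F1, ELL, GTF2E1, CDK9 and TGS1 had a region in WT cells alone, between 2.93 and 4.57, and INTS4, INTS12, ICE2 and MEPCE in KO cells alone, between 3.64 and 4.45. For RPB1, 31 of 33 WT and 31 of 32 KO factor genes were in both lists, where 92.0% and 95.1% of all features were. For phospho-Ser2, 25 of 30 and 25 of 29 were, where 79.4% and 89.8% of all features were. Of the 31 RPB1 ratios of these factor genes, 23 were below 1 (74.2%), against 84.8% of all features.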

How the data were processed

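The ChIP-seq covered RPB1 and phospho-Ser2 RPB1 in WT and KO HepG2 cells, with 1 library each, and the 2 input libraries were not analysed here. For trimming the authors used Trimmomatic, for alignment to hg38 BWA, and for narrow peaks over the matching input MACS2. The versions are not given in the sources used here. The deposited lists give each region's fold enrichment over input, a ratio, the deposited −log10 p-value and q-value, and the nearest gene. A deposited table of the authors' own csaw comparison of RPB1 (p-values and window counts per region) was not used.

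Regions were selected by the authors' symbol and split at 1000 bp from the start. Copies were matched to RefSeq and GENCODE release 44 positions within 20 bp. The strongest near region gave each copy or gene its value, and a fold of 1.5 counted as different. Named are all member copies with a near region, the pseudogenes among the 5 with the highest WT RPB1 fold enrichment other than 1 not reported here and, from the factor lists, the genes with the extreme ratios or a region in 1 list alone. The members and lists were chosen with earlier results of these data known. The alternatives were a −log10 q-value of at least 5, distances of 500 and 3000 bp, distinct intervals, main chromosomes, RefSeq positions with 250 bp on each side, means over regions, scaling by the median, folds of 1.25 and 2, percentiles, and leaving out U1 and U2 copies. Values per symbol, ratios by position, leaving out RNU6-2 and the ranges of like strength were added after seeing the data. The functions were tested on simulated data. Python 3.11.15, pandas 2.3.3, NumPy 2.4.6, pysam 0.24.0 and matplotlib 3.10.9 were used. Depth is unknown, so no counting interval is given.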

Additional observations from a re-analysis of the deposited data

How the results depend on the processing

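No paired analysis was possible because each antibody and cell line has 1 library. Of 82 alternative values, 66 stayed within 1.5 times the reported value. A turn to the other direction was looked for only in medians and relative ratios whose reported value was past the fold, and none was found. The counts and the median KO to WT ratios of the RNA pol II copies were outside this check. The counts of copies past a fold moved with the fold and the scaling. For RPB1 higher in KO cells, 2 copies became 12 after division by the median of all features, 8 at the lower alternative fold, 0 at a fold of 2, 1 without the U1 and U2 copies and 1 at a −log10 q-value of at least 5. For RPB1 lower, 4 became 1 after division by the median, 9 at the lower alternative fold and 1 at a fold of 2. For phospho-Ser2, 5 higher copies became 1 at a fold of 2 and 3 without the U1 and U2 copies, and 2 lower copies became 4 at the lower alternative fold, 0 at a fold of 2 and 1 without the U1 and U2 copies. The phospho-Ser2 to RPB1 ratio of the RNA pol II copies relative to all features was 1.81 in WT cells, 1.10 when percentiles replaced fold enrichments, and 2.98 among copies and features between the lower quartile and the highest RPB1 value of the copies. In KO cells it was 1.52 and became 2.78 there. These ranges were chosen after seeing the data. Where the fold or the copies counted changed, the alternative's own construction moved the count. Percentiles have an upper limit, and the RNA pol II copies had a median RPB1 percentile of 95.8 in WT cells. This leaves their ratio of percentiles little room to rise, and what else moved that value was not tested. Single libraries, clonal lines, unknown depth and the sharing of reads among U1 copies limit all values.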

Other observations

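Few snRNA pseudogenes had a region in these lists. A missing region does not show that RPB1 was absent, because how reads of shared sequence were placed is not given. No share over other positions of like length was taken. Of 2112 snRNA and 7SK pseudogenes in the RefSeq table, 36 (1.70%) had an RPB1 region within 250 bp in WT cells and 32 (1.52%) in KO cells, while 35 of 42 snRNA genes did in each. With phospho-Ser2 RPB1, 109 (5.16%) in WT and 88 (4.17%) in KO cells did, against 26 and 27 of the 42 genes. The median fold enrichment at the pseudogenes was 7.88 in WT and 9.04 in KO cells for RPB1, and 4.19 and 4.07 for phospho-Ser2.

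Of the 5 pseudogenes with the highest WT RPB1 fold enrichment, 4 are given here. RNU4-8P had 40.5, in a region assigned to ACTR1B, RN7SKP114 had 40.0, assigned to UBAP2, and RNU6-722P had 30.0, assigned to OTUD5, and none of these had a phospho-Ser2 fold enrichment above 2.97. The U5 pseudogene RNU5E-4P lay in the long RPB1 region of RNU5E-1, at 39.9 in WT and 56.2 in KO cells, and had phospho-Ser2 regions apart from those at RNU5E-1, of 11.7 and 17.6. These phospho-Ser2 values lay within the range of the named RNA pol II snRNA copies.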
